A study of Sus scrofa with 12 samples.

Results

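The genes of glycolysis, gluconeogenesis and the citrate cycle were followed in the endometrium of sows on 4 gestation diets. A gene was a member if the deposited pathway annotation placed it in the KEGG pathway of glycolysis and gluconeogenesis or in that of the citrate cycle, and not in oxidative phosphorylation. The rule used no measured value and found 79 of the 20674 genes in the table, 60 in the glycolysis pathway and 26 in the citrate cycle, with 7 in both. Another 3 genes of these pathways, SDHA, SDHB and SDHC, were left out because they also belong to oxidative phosphorylation.

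The animals were Landrace × Yorkshire sows fed through 114 days of gestation, and polyadenylated RNA of the endometrium was sequenced. L − N sows received 3.73% crude fiber, and L + N sows the same with 0.05% N-carbamylglutamate (NCG), a compound that activates the body's own synthesis of arginine. H − N sows received 7.46% crude fiber, and H + N sows the same with 0.05% NCG. Each group had 3 libraries, so 12 in all. The design asks what more fiber, NCG and both together do to the uterus, and here the question was put to the enzymes that break down glucose and oxidize its carbon.

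Glycolysis splits glucose into pyruvate, and hexokinase, phosphofructokinase and pyruvate kinase catalyze its irreversible steps. Lactate dehydrogenase turns pyruvate into lactate, while the pyruvate dehydrogenase complex carries it into the mitochondrion's citrate cycle as acetyl-CoA. The endometrium takes up glucose from maternal blood, uses part of it and passes glucose and fructose on toward the conceptus, so these enzymes belong to its ordinary work in gestation.

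The total count was 15797001, 16916495 and 15828950 in the L − N libraries 1 to 3. It was 19309724, 16619226 and 14701681 in L + N. It was 18549636, 14369781 and 15332896 in H − N, and 15155660, 17714918 and 17012856 in H + N. The members together held 0.634% to 0.771% of the counts of a library. Markers of endometrium were present, with a mean FPKM (read counts scaled to gene length and library size) of 3526 for the stromal collagen COL3A1 and 197 for the epithelial keratin KRT8. Skeletal muscle markers summed to at most 1.12 FPKM in any library, and TNNT3 among them was at 0.

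Of the 79 members, 69 had enough counts to be tested and 10 did not. Among the untested members were ADH1C, ADH4, FBP2, G6PC, G6PC2, LDHC, PGK2, LOC100153697 and LOC100512795. G6PC2, a glucose-6-phosphatase of pancreatic islets, was at 0 counts in the 12 libraries. PGK2, the testis form of phosphoglycerate kinase, had 1 count in total, the lowest above 0. The members were abundant, since 65 (82.3%) had a mean of at least 1 FPKM against 62.4% of all genes in the table, and 50 (63.3%) had at least 10 FPKM against 29.4%. The median level of the tested members was 23.9 FPKM, against 6.98 FPKM over all 15351 genes tested.

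The 6 members above 100 FPKM were enzymes of the middle and lower glycolytic chain and of malate oxidation. TPI1, which interconverts the triose phosphates, had the highest level with 168 FPKM. ENO1 (enolase) followed with 160.3 FPKM, GAPDH with 149, PGAM1 (phosphoglycerate mutase) with 146, PGK1 (phosphoglycerate kinase) with 125 and MDH1 (cytosolic malate dehydrogenase) with 124. Levels at the irreversible steps were lower, with 72.3 FPKM for PKM (pyruvate kinase), 40.6 FPKM for HK1 (hexokinase) and 23.9 FPKM for PFKP (the platelet type of phosphofructokinase). The enzymes that make glucose in liver were sparse: FBP1 (fructose bisphosphatase) had 2.63 FPKM and PC (pyruvate carboxylase) 3.30 FPKM. FBP2, the muscle form of that bisphosphatase, had 2 counts in total.

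**Figure D1:**
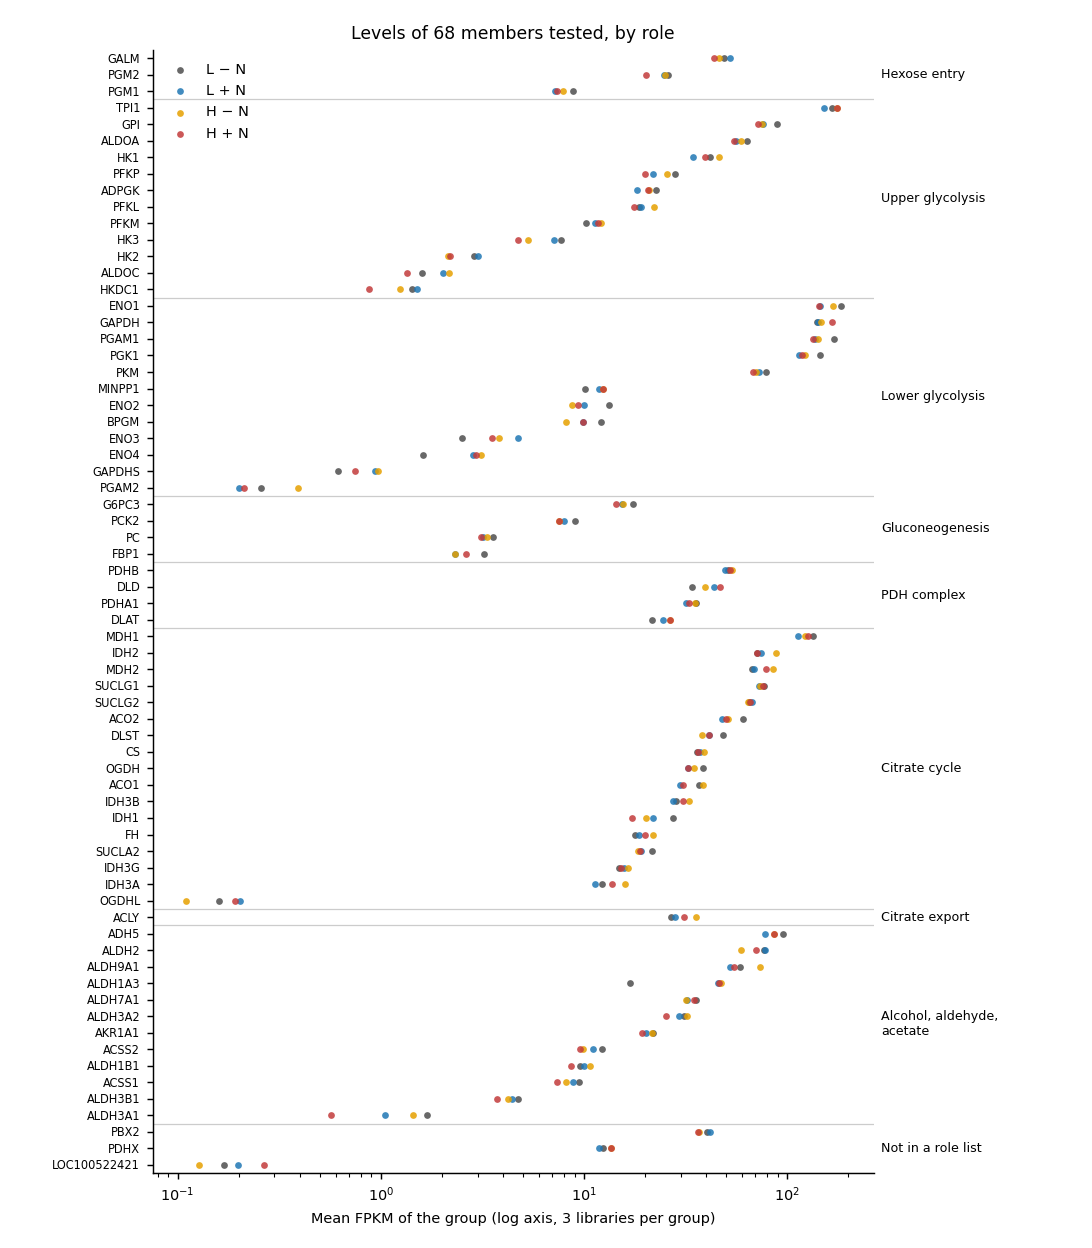
Mean FPKM of each group (log axis, 3 libraries per point) for 68 of the members tested, in rows by role, with 1 color per diet. Within a row the 4 groups mostly lie close together while the rows range from under 1 FPKM to 168 FPKM for TPI1, and ALDH1A3 has its L − N point apart from the rest at 16.9 FPKM.

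Where several genes code for the same step, usually 1 of them held most of the level. HK1 made up 80.3% of the summed FPKM of the hexokinase genes HK1, HK2, HK3 and HKDC1 on average (67.4% to 89.6% by library), followed by HK3 with 12.2%, HK2 with 5.04% and HKDC1 with 2.49%. ALDOA made up 97.0% of the sum of the aldolases ALDOA and ALDOC, PGAM1 99.8% of phosphoglycerate mutase and ENO1 90.4% of enolase. Phosphofructokinase was more evenly shared, with 43.6% from PFKP, 35.4% from the liver type PFKL and 21.0% from the muscle type PFKM. In the citrate cycle, the mitochondrial IDH2 made up 77.7% of the NADP-dependent isocitrate dehydrogenase level, and SUCLG2, the GTP-forming subunit, 77.1% of the beta subunits of succinyl-CoA ligase.

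LDHA and LDHB, the subunits of lactate dehydrogenase, were in the table without a pathway annotation and so were not members. PCK1, PKLR and PDHA2 lacked it too, and they stood at 0.2199, 0.229 and 0 FPKM. The heart type LDHB had 276 FPKM, above every member, and LDHA 58.7 FPKM, so that LDHB made up 77.7% to 86.6% of the lactate dehydrogenase level by library. The only lactate dehydrogenase among the members was the testis form LDHC, with 0.172 FPKM. PBX2 (38.8 FPKM) was a member by its annotation, which carries the orthology of phosphoenolpyruvate carboxykinase, although PBX2 is a homeobox transcription factor.

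**Figure D2:**
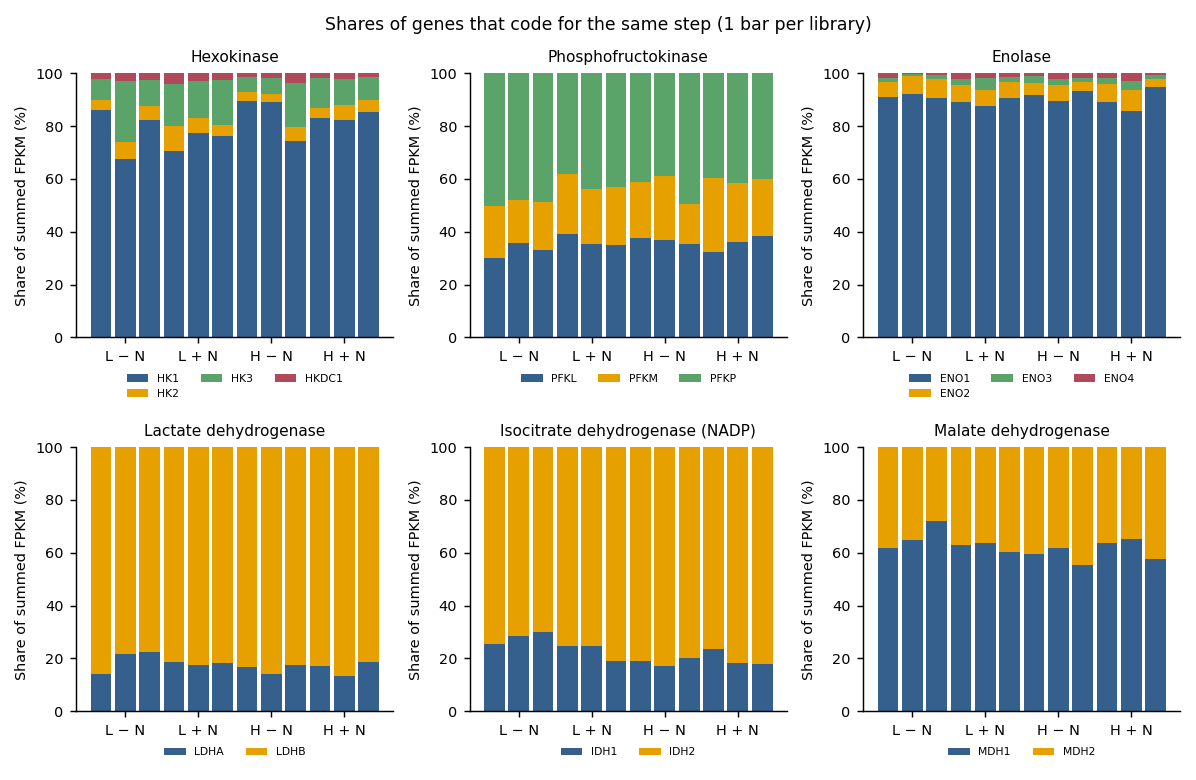
Share in percent of the summed FPKM of the genes shown for the same step, for 6 steps, with 1 stacked bar for each of the 12 libraries and 1 color per gene. HK1, ENO1, LDHB and IDH2 fill most of their bars in each library, while phosphofructokinase is divided among PFKP, PFKL and PFKM.

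The comparison of the 6 libraries with NCG against the 6 without it asks what NCG did over both diets. HK1, PFKP, IDH1 and ALDH9A1 were lower with NCG at an adjusted p under 0.05 in edgeR, the threshold that "passed" refers to throughout. These were 4 of 69 members lower and 0 higher, while 1.60% of all genes tested were lower and 5.67% were higher. No member also had an absolute log2 fold change above 1, as 1.80% of all genes had. The count of 0 higher members compares with 1 at an unadjusted p under 0.05, and 12 were lower at that level, while DESeq2 passed 6 members. Unadjusted, 17.4% of members were lower against 10.4% of all genes, and 1.45% higher against 13.2%. The 6 members of DESeq2 were all lower, 8.70% against 4.72% of all genes, while 8.39% of all genes were higher. With the directions merged the shares were 18.8% against 23.6% unadjusted and 8.70% against 13.1% by DESeq2. The median log2 fold change was −0.18 over the members and −0.03 over all genes, and 58 of the 69 members (84.1%) had a negative value against 53.1% of all genes. The count was 1 without L − N library 3 or H + N library 1, and 2 without L − N library 2, without any of the L + N libraries, without H − N library 1 or 3, or without H + N library 2. The p-values measure the spread between these sows' samples only. In bulk tissue fewer cells of a type and less RNA per cell cannot be told apart.

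**Figure D3:**
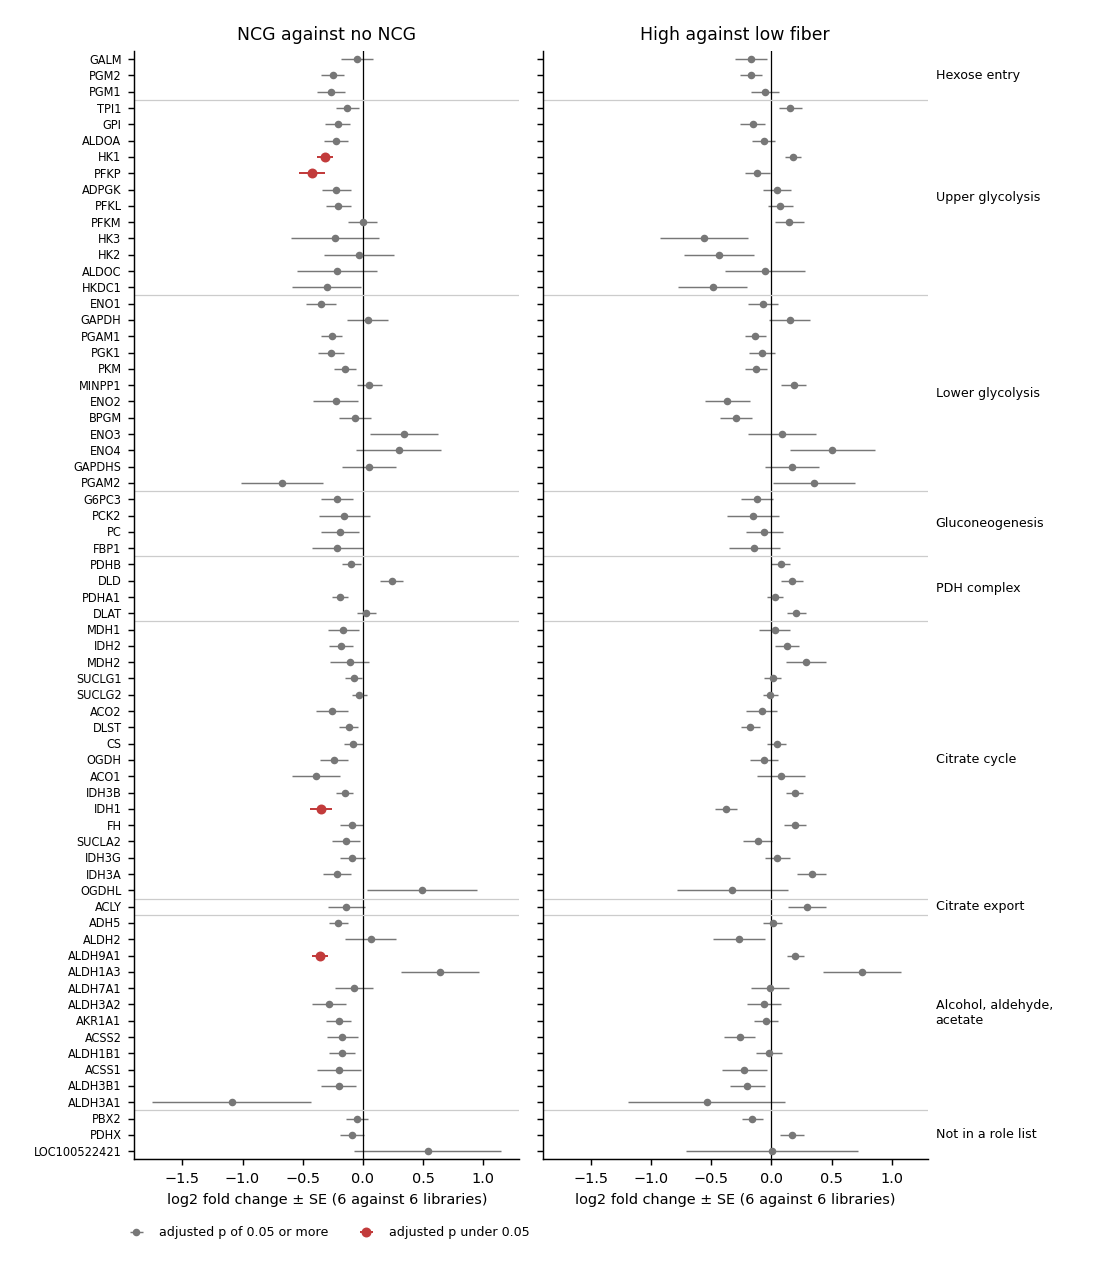
The log2 fold change with its standard error for 68 of the tested members, NCG against no NCG on the left and high against low fiber on the right, 6 against 6 libraries, ordered by role, with red points for an adjusted p under 0.05. On the left 57 of 68 points lie below 0 and 4 are red, while on the right the points lie on both sides of 0 and none is red.

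In the upper part of glycolysis, where glucose is phosphorylated and split, all 13 tested members had a negative value for NCG, with a median of −0.22, and HK1 and PFKP passed. HK1 (gene 100152344, chromosome 14, 72383328 to 72460927 of Sscrofa11.1) codes for the hexokinase that traps glucose in most tissues. Its CPM (counts scaled by TMM to a common library size) were 150.3, 161 and 162 in L − N, 117, 123 and 116 in L + N, 181, 160.3 and 161 in H − N, and 135, 145 and 149 in H + N. All 6 libraries with NCG lay below all 6 without it, by a narrow margin on the side of H + N library 3. Such a gap in the lower direction was found for 2 of 69 members (2.90%) and 118 of all 15351 genes tested. In the higher direction it was found for 0 members and 495 genes, and 3.99% of all genes had a gap in either direction. The log2 fold change was −0.32 ± 0.07 (SE, 6 against 6 libraries, adjusted p = 0.0171). HK1 did not pass without L − N library 3 (adjusted p = 0.0508) or H + N library 1 (adjusted p = 0.0527), and over 16 alternatives its adjusted p ran from 2.20e-05 to 0.0527.

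PFKP (gene 100521394, chromosome 10, 67022652 to 67082336) codes for a phosphofructokinase, the enzyme that commits sugar to glycolysis. It had 86.0, 78.7 and 71.3 CPM in L − N, 49.4, 60.5 and 59.9 in L + N, 74.6, 56.8 and 78.4 in H − N, and 47.5, 55.6 and 59.3 in H + N. The L − N libraries lay above every library with NCG, while H − N library 2 fell among them. PFKP differed by −0.42 ± 0.10 on the log2 scale for NCG (SE, 6 against 6 libraries, adjusted p = 0.0353). It passed without H − N library 2 or H + N library 3 and, without any of the other 10 libraries, had an adjusted p of 0.0541 to 0.0883. PFKL and PFKM, the other forms, had −0.20 and −0.00 for NCG and did not pass (adjusted p of 0.267 and 0.995), and neither did HK2 with −0.03 (adjusted p = 0.955) or TPI1 with −0.13 (adjusted p = 0.442).

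**Figure D4:**
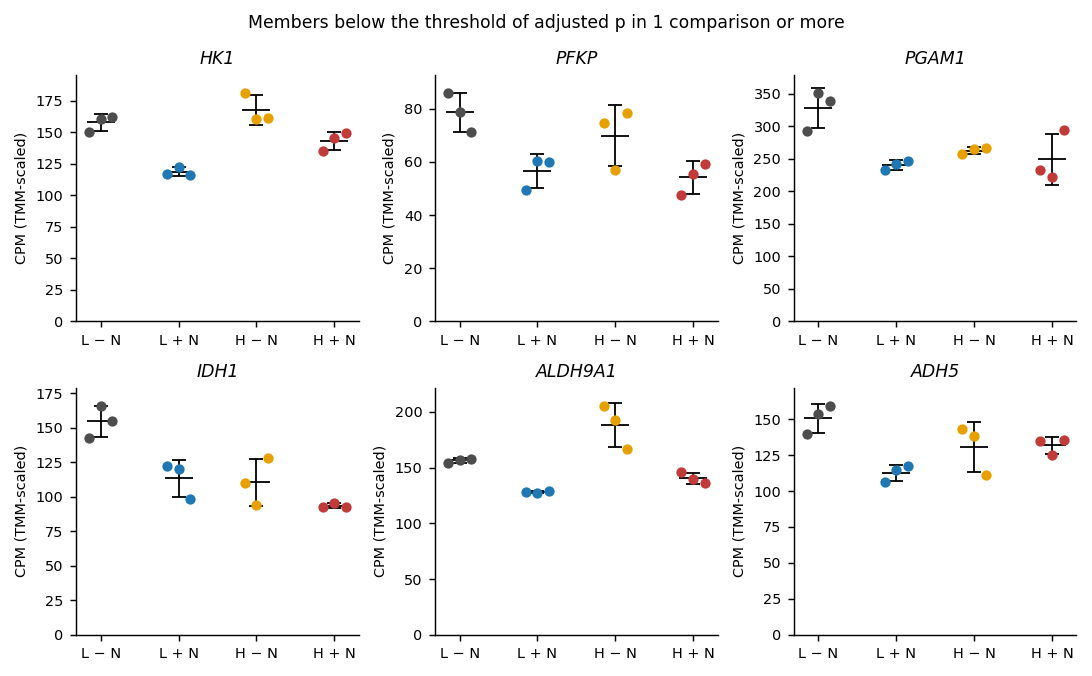
TMM-scaled CPM in each of the 12 libraries (points), with the mean and SD of each group of 3, for the 6 members that passed in at least 1 comparison. HK1 and ALDH9A1 have all their L + N and H + N points below their L − N and H − N points, and IDH1 and PFKP are highest in L − N.

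In lower glycolysis, from triose phosphate to pyruvate, 0 of 12 tested members passed for NCG in edgeR, with 7 negative values and a median of −0.11. At an unadjusted p under 0.05, 3 of the 12 were lower and 0 higher. ENO1 had 342, 455 and 397 CPM in L − N, 289, 255 and 319 in L + N, 359.9, 317 and 371 in H − N, and 236, 275 and 379.8 in H + N. The libraries with and without NCG overlapped, and the log2 fold change of −0.35 ± 0.13 did not pass (SE, adjusted p = 0.121, and 0.0300 without H + N library 3). GAPDH, often used as a reference gene, had a log2 fold change of 0.04 ± 0.17 (adjusted p = 0.911) and was highest in H + N library 3, at 1115 CPM against 565 to 824 CPM in the other libraries. PKM, which ends glycolysis, had −0.15 (adjusted p = 0.349), and LDHA and LDHB, outside the members, had −0.25 and −0.21 (adjusted p of 0.250 and 0.102). DESeq2 passed LDHB (adjusted p = 0.00626) and PGAM1 (adjusted p = 0.0323) for NCG. PGAM1 had an adjusted p of 0.101 in edgeR and passed there without H + N library 3 (adjusted p = 0.0274).

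The 4 tested genes of gluconeogenesis had negative values for NCG, with a median of −0.20, and none passed in edgeR. G6PC3, the glucose-6-phosphatase found in most tissues, had the highest level of them, 15.7 FPKM, and a log2 fold change of −0.22 (adjusted p = 0.347). PC, PCK2 (mitochondrial phosphoenolpyruvate carboxykinase) and FBP1 had −0.19, −0.16 and −0.21 (adjusted p of 0.491, 0.696 and 0.573). The 3 genes that bring other hexoses and glycogen into the pathway had negative values too, with a median of −0.25. In edgeR 0 passed, with 2 lower at an unadjusted p under 0.05 and 0 by DESeq2. The 2 were the phosphoglucomutases PGM1 with −0.26 and PGM2 with −0.25 (adjusted p of 0.203 and 0.138), while GALM, which converts between forms of galactose and glucose, had −0.05 (adjusted p = 0.846).

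Of the 4 tested genes listed for the pyruvate dehydrogenase complex, 2 had positive and 2 negative values for NCG, and 0 passed in edgeR. PDHX, another component of the complex, was outside this list and did not pass for NCG either. At an unadjusted p under 0.05 there were 2 of the 4, and DESeq2 passed PDHA1. The higher of these 2 was DLD, the shared dihydrolipoamide dehydrogenase, with a log2 fold change of 0.24 (adjusted p = 0.152), which is also the member counted above as higher at the unadjusted level. PDHB, the beta subunit of the complex's first enzyme, had the highest level, 51.8 FPKM, and −0.10 (adjusted p = 0.494), and PDHA1, the alpha subunit, had −0.19 (adjusted p = 0.119, and 0.0333 by DESeq2). Of 15 tested genes that regulate this complex and the glycolytic flux, a list written beside the members, 1 passed for NCG. It was PDK1, a kinase that inactivates pyruvate dehydrogenase, which had 87.7, 78.3 and 102 CPM in L − N, 54.0, 53.2 and 44.4 in L + N, 54.6, 56.6 and 53.7 in H − N, and 56.8, 47.3 and 49.2 in H + N. Each L − N library lay above all the other 9, which overlapped one another.

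PDK1 fell by 0.46 on the log2 scale with NCG (SE 0.09, adjusted p = 0.0136). Against L − N it was −0.82 ± 0.13 in L + N (adjusted p = 0.00818), −0.70 ± 0.13 in H − N (adjusted p = 0.0207) and −0.81 ± 0.13 in H + N (adjusted p = 0.0151), comparisons that share the L − N libraries. The interaction of fiber and NCG was 0.72 ± 0.18 and did not pass (adjusted p = 0.255). In H + N it did not pass without L − N library 3 (adjusted p = 0.0719) or H + N library 1 (0.0524), and in H − N without L − N library 3 (0.0949), H − N library 1 (0.0695) or H − N library 3 (0.0525). PDK4, the kinase induced by fasting in many tissues, had 132, 66.5 and 80.9 CPM in L − N and 28.1, 37.5 and 36.3 CPM in L + N. It varied widely in the other groups, from 4.60 to 71.4 CPM, and did not pass for NCG (log2 fold change −0.98 ± 0.47, SE, adjusted p = 0.232). PDK4 overlaps a gene on the opposite strand, so its value is uncertain.

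In the citrate cycle, 16 of 17 tested members had a negative value for NCG, with a median of −0.14, and IDH1 passed. IDH1 (gene 102166364, chromosome 15, 111341153 to 111362330) codes for the cytosolic isocitrate dehydrogenase, which makes NADPH outside the mitochondrion. It had 143, 166 and 155 CPM in L − N, 122, 119.8 and 98.0 in L + N, 110.1, 93.8 and 128 in H − N, and 92.5, 95.5 and 92.3 in H + N. L − N lay above all other libraries, H + N was the lowest group on average, and L + N and H − N overlapped. The log2 fold change for NCG was −0.34 ± 0.09 (SE, 6 against 6 libraries, adjusted p = 0.0456). IDH1 passed for NCG without L − N library 1 or H − N library 2 and, without any of the other 10 libraries, had an adjusted p of 0.0654 to 0.1004.

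The other steps of the cycle did not pass for NCG. CS (citrate synthase, the entry step) had −0.08 (adjusted p = 0.561), IDH3A (the catalytic subunit of the NAD-dependent isocitrate dehydrogenase) −0.22 (0.298), OGDH (2-oxoglutarate dehydrogenase) −0.24 (0.246) and MDH1 −0.16 (0.479). ACLY, which splits exported citrate into acetyl-CoA for lipid synthesis, had −0.14 (adjusted p = 0.627). The genes of succinate dehydrogenase, SDHA, SDHB, SDHC and SDHD, had levels of 33.4, 81.3, 68.7 and 147 FPKM. Their log2 fold changes for NCG were −0.16, −0.10, −0.13 and −0.18, and 0 of 4 passed in edgeR, with 0 at an unadjusted p under 0.05 and 0 by DESeq2. CS, IDH3A, GAPDH, PDHA1, PFKM, PC and ALDOA were among 20 members that overlap another gene, 19 of them a gene on the opposite strand, and since the counting strand was not stated their values are uncertain, as are those of SDHA and PKLR; the 6 members that passed overlap none.

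Among 12 tested members that handle alcohols, aldehydes and acetate, 10 had negative values for NCG, with a median of −0.20, and ALDH9A1 passed. ALDH9A1 (gene 100153809, chromosome 4, 85029914 to 85057650) codes for an aldehyde dehydrogenase that acts on aminoaldehydes, in the synthesis of carnitine and of gamma-aminobutyric acid from putrescine. It had 154, 157 and 158 CPM in L − N, 128, 127 and 129 in L + N, 205, 193 and 167 in H − N, and 146, 139 and 136 in H + N. All 6 libraries with NCG were below all 6 without it, on each diet. The log2 fold change was −0.36 ± 0.07 (SE, 6 against 6 libraries, adjusted p = 0.0132), and ALDH9A1 passed in 16 of 16 alternatives, with adjusted p from 7.20e-06 to 0.0466.

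High against low fiber, over both NCG levels, asks what more fiber did. No member passed in edgeR, with 0 higher and 0 lower, while 0.00651% of all genes were higher, 0.0456% lower and 0.0261% passed with an absolute log2 fold change above 1. At an unadjusted p under 0.05 there were 10 members, and DESeq2 passed 1, IDH1 (adjusted p = 0.00546). Of the 10, 7 were higher (10.1%, against 9.30% of all genes) and 3 lower (4.35%, against 10.2%). By DESeq2 1.45% of members were lower against 4.63% of all genes, and 0% higher against 2.48%. The median log2 fold change was −0.02 over the members and 0.02 over all genes, and 53.6% of members had a negative value against 46.3% of all genes. IDH1 had −0.38 ± 0.09 (SE, adjusted p = 0.0882 in edgeR) and also passed in edgeR without L − N library 1 (adjusted p = 0.0311). HK1 had 0.18 (adjusted p = 0.175), HK2 −0.43 (0.434), PKM −0.13 (0.463), IDH3A 0.34 (0.161) and ACLY 0.30 (0.320).

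The interaction asks whether NCG acted differently on the high-fiber diet. In edgeR 0 members passed, with 3 at an unadjusted p under 0.05 and 0 by DESeq2, and 0% of all genes passed in either direction or with the fold threshold. The 3 were all positive, 4.35% of members against 7.48% of all genes, while 5.33% of all genes were negative at that level, and DESeq2 passed 1.87% of all genes. The interaction was 0.18 ± 0.13 for HK1 (SE, adjusted p = 0.577), 0.11 for PFKP (0.857), 0.20 for IDH1 (0.653) and −0.14 for ALDH9A1 (0.689). The effects of NCG on the low-fiber and the high-fiber diet were thus not shown to differ for these genes. A test of any difference among the 4 groups passed 3 members, ALDH9A1, HK1 and IDH1, and 6.96% of all genes. In that test 12 members (17.4%) had an unadjusted p under 0.05, against 27.3% of all genes, and DESeq2 passed 10 (14.5%), against 21.5%. The count was 0 without L − N library 2 or 3, L + N library 2 or H + N library 1, and 1 (IDH1) without L + N library 1 or 3 or H − N library 1 or 2.

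The comparisons of H + N, H − N and L + N with L − N ask what both supplements, fiber alone and NCG alone did, and they share the 3 L − N libraries. In H + N, 2 members passed as lower and 0 as higher, IDH1 and PFKP, while 3.66% of all genes were lower, 4.31% higher, and 3.58% passed with the fold threshold, which 0 members met. IDH1 fell by 0.72 on the log2 scale (SE 0.13, adjusted p = 0.0171) and PFKP by 0.54 (SE 0.15, adjusted p = 0.0490). At an unadjusted p under 0.05, 10 members were lower (14.5%, against 12.9% of all genes) and 2 higher (2.90%, against 14.6%). DESeq2 passed 4 as lower (5.80%, against 8.48%) and 1 as higher (1.45%, against 8.70%). The median over the members was −0.21, against 0.02 over all genes. IDH1 did not pass without L − N library 3 (adjusted p = 0.0778) or H + N library 1 (0.0592), which left 0 members. PFKP passed without H − N library 2 or 3 and, without any of the other 10 libraries, had an adjusted p of 0.0524 to 0.139. The count rose to 4 without L − N library 1 or H − N library 3, and was 1 without L − N library 2, H − N library 1 or any of the L + N libraries.

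In L + N against L − N, 3 members passed as lower and 0 as higher, HK1, ADH5 and PGAM1, while 3.63% of all genes were lower, 5.97% higher, and 3.99% passed with the fold threshold, which 0 members met. PGAM1 (gene 100154776, chromosome 14, 108822782 to 108832818) had 293, 351 and 339 CPM in L − N, 232, 242 and 247 in L + N, 257, 264 and 266 in H − N, and 232, 221 and 294 in H + N. ADH5 (gene 100513555, chromosome 8, 121266794 to 121282313), which oxidizes the glutathione adduct of formaldehyde, had 139.6, 153 and 159 CPM in L − N, 106, 115 and 117 in L + N, 143, 138 and 111 in H − N, and 135, 125 and 135 in H + N. For both genes L + N lay below L − N without overlap, while H + N and H − N lay between them or across them. In this comparison of 3 against 3 libraries, 29.0% of members and 35.3% of all genes tested had a gap in either direction.

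On the low-fiber diet HK1 was −0.41 ± 0.09 (SE, adjusted p = 0.0223), ADH5 −0.42 ± 0.11 (adjusted p = 0.0427) and PGAM1 −0.45 ± 0.12 (adjusted p = 0.0460) with NCG on the log2 scale. At an unadjusted p under 0.05, 17 members were lower (24.6%, against 13.7% of all genes) and 1 higher (1.45%, against 14.03%). DESeq2 passed 9 as lower (13.0%, against 8.38%) and 1 as higher (1.45%, against 9.06%). The median over the members was −0.23, against −0.02 over all genes, and 57 of 69 values (82.6%) were negative, against 52.3% of all genes. The count was 10 without L − N library 1, 1 (HK1) without H + N library 1, and 0 without L − N library 2 or 3 or any of the L + N libraries. HK1 had an adjusted p of 0.0642 to 0.0942 without those 5 libraries. ADH5 also did not pass without H − N library 2 (adjusted p = 0.0581), H + N library 1 (0.0693) or H + N library 2 (0.0600). PGAM1 did not pass without any of the H − N libraries either (adjusted p of 0.0522 to 0.0670), nor without H + N library 1 (0.0583).

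In H − N against L − N, 0 members passed in edgeR, while 1.56% of all genes were higher, 3.71% lower and 2.91% passed with the fold threshold. At an unadjusted p under 0.05, 5 members were lower (7.25%, against 13.1% of all genes) and 3 higher (4.35%, against 11.3%). DESeq2 passed 3 as lower (4.35%, against 8.83%) and 2 as higher (2.90%, against 4.59%), among them ALDH1A3, BPGM, DLST and IDH1. The median was −0.13 over the members and 0.03 over all genes. The count in edgeR was 5 without L − N library 1 and 1 without H + N library 2 or 3. The median was −0.04 without L − N library 2. IDH1 had −0.48 (adjusted p = 0.0552), and DLST, a subunit of the 2-oxoglutarate dehydrogenase complex named after its values were seen, −0.42 (adjusted p = 0.0532).

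Side by side, the log2 fold changes against L − N for HK1 were −0.14 in H + N, 0.09 in H − N and −0.41 in L + N. For PFKP they were −0.54, −0.17 and −0.48 in the same order, and for IDH1 −0.72, −0.48 and −0.45. PGAM1 had −0.40, −0.32 and −0.45, and ALDH9A1 −0.16, 0.27 and −0.29. By role, upper glycolysis had medians of −0.27 in H + N, −0.16 in H − N and −0.26 in L + N, and the citrate cycle −0.06, −0.07 and −0.20.

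NCG within the high-fiber diet, H + N against H − N, passed 0 members in edgeR, with 6 at an unadjusted p under 0.05 and 1 by DESeq2 (ALDH9A1), and 0% of all genes passed by any of the edgeR rules. The 6 were all lower, 8.70% of members against 3.32% of all genes, while 5.35% of all genes were higher at that level. By DESeq2 1.45% of members were lower against 0.0782% of all genes. Its median was −0.09 over the members and 0.01 over all genes. High against low fiber with NCG, H + N against L + N, also passed 0 members, with 2 at an unadjusted p under 0.05 and 0 by DESeq2, and 0% of all genes passed in edgeR. The 2 were both higher, 2.90% of members against 3.01% of all genes, while 1.67% of all genes were lower at that level, and DESeq2 passed 0.0130% of all genes. Its median was 0.05 over the members and 0.01 over all genes.

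ALDH1A3, which makes retinoic acid from retinal, had the highest positive value among the members in H + N against L − N and was singled out after its values were seen. It had 76.98, 44.3 and 69.4 CPM in L − N, 169, 75.9 and 227 in L + N, 273, 169 and 67.5 in H − N, and 181, 154 and 166 in H + N. H + N lay above L − N, and in that comparison 17.4% of members and 28.0% of all genes tested had a gap in either direction. L + N and H − N were widely spread, and L + N library 2 and H − N library 3 lay within the L − N range. The log2 fold change against L − N was 1.40 ± 0.47 in H + N (SE, adjusted p = 0.0822) and did not pass in edgeR. DESeq2 passed it (adjusted p = 0.0207), as edgeR did without H − N library 3 (adjusted p = 0.0395). In H − N and L + N against L − N, ALDH1A3 did not pass in edgeR either (adjusted p of 0.0980 and 0.0996), while DESeq2 passed it (0.0229 and 0.0317). Without H − N library 3 edgeR passed it in L + N (adjusted p = 0.0436). ALDH1A3 overlaps a gene on the opposite strand, so its value is uncertain.

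The balance between genes of the same step was compared as a log2 ratio of 2 FPKM values, by an exact permutation test within the levels of the other factor (two-sided, 400 arrangements, smallest possible p 0.005). Of 18 tests, 9 ratios for fiber and for NCG, 0 passed after adjustment over the 18. IDH2 over IDH1 for fiber had the smallest exact p, 0.01 (adjusted p = 0.180), with a mean log2 ratio of 2.07 ± 0.21 (SD) in the 6 high-fiber libraries and 1.57 ± 0.30 in the 6 low-fiber libraries. IDH1 made up 27.9% of that step in L − N and 22.8% in L + N, against 18.7% on high fiber alone and 19.9% in H + N. For HK2 over HK1 the log2 ratio differed by −0.57 for fiber (exact p = 0.08), and for PFKP over PFKL by −0.21 for NCG (exact p = 0.1).

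Within groups the members varied little, with a median SD of 0.211 on the log2 CPM scale against 0.267 over all genes tested. Among genes of at least 10 FPKM the medians were 0.178 for 50 members and 0.197 for 6073 genes. SUCLG2 varied least (0.0686), followed by HK1 (0.0722), and ALDH3A1, an aldehyde dehydrogenase of epithelia with 1.19 FPKM, varied most (1.13). The members sit on 18 chromosomes, with 8 on chromosome 7. ENO2, TPI1 and GAPDH lie close together on chromosome 5, with gaps of 30.4 kb and 287 kb, and HKDC1 lies 39.3 kb from HK1 on chromosome 14.

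**Figure D5:**
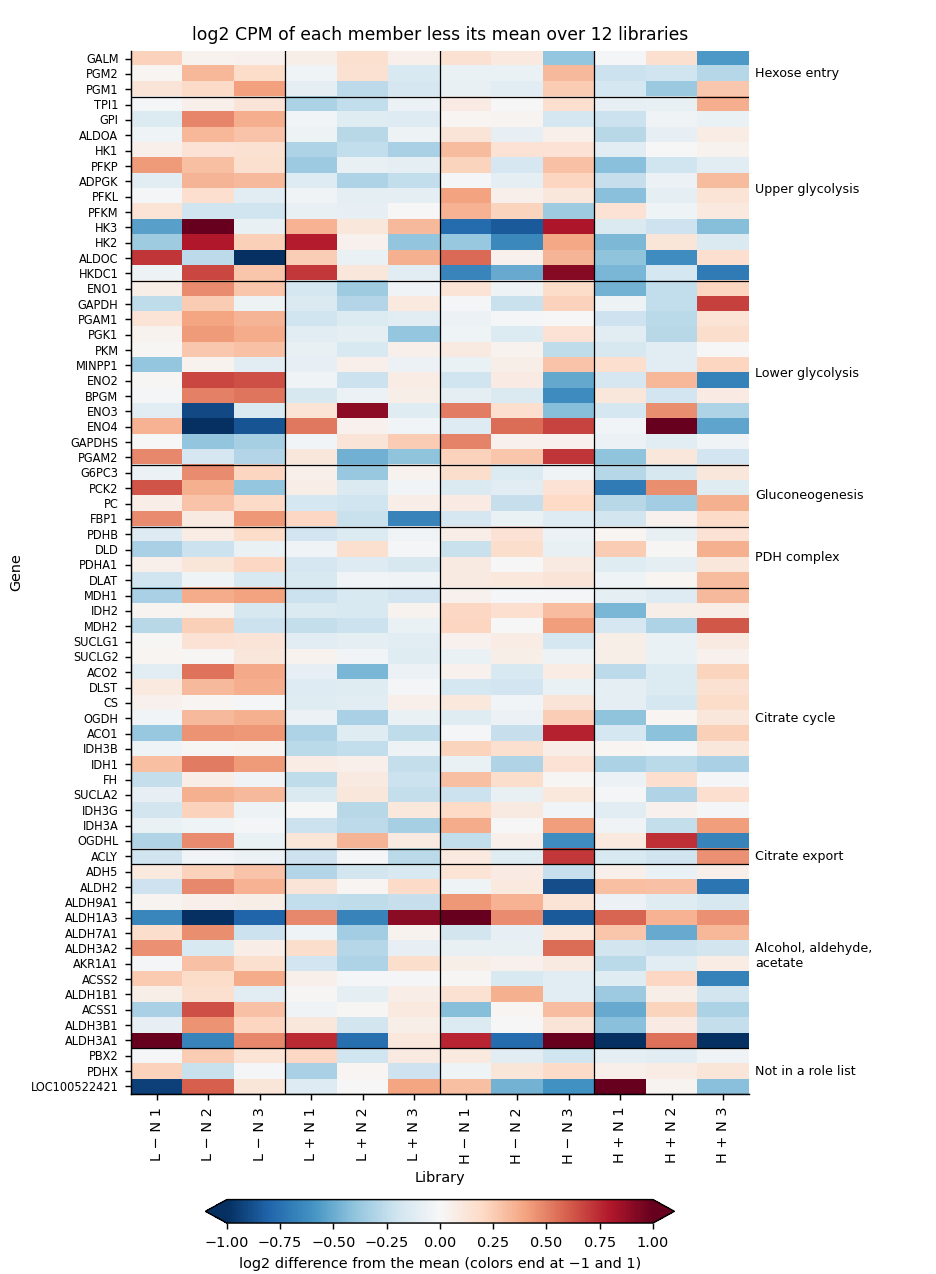
The log2 CPM of 68 tested members, each less its mean over the 12 libraries, with 1 column per library in groups of 3 and rows by role, and colors ending at −1 and 1. The L + N libraries and H + N libraries 1 and 2 are below the mean in most rows of glycolysis and the citrate cycle, while H + N library 3 is above it in most, MDH2 and GAPDH among them.

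Markers of several cell types moved in the same comparisons as members. The 8 macrophage markers summed to 560.2, 1371 and 1386 FPKM in L − N, 793, 686 and 528 in L + N, 420.4, 445 and 284 in H − N, and 625, 658 and 488 in H + N. L − N libraries 2 and 3 lay above all others, and the most abundant marker was C1QB with 284 FPKM. Against L − N, 3 of 8 passed as lower in H + N, 6 in H − N and 2 in L + N, and 0 for NCG (2 at an unadjusted p under 0.05, and 1 by DESeq2). For fiber 0 passed in edgeR, with 8 at an unadjusted p under 0.05, 6 by DESeq2, and 7 in edgeR without L − N library 1. For the interaction 0 passed in edgeR, with 8 positive at an unadjusted p under 0.05 (median 1.48), and 6 passed without L − N library 1. Without L − N library 1 the first 4 counts were 7, 8, 6 and 2, and without L − N library 3 they were 0 in each. The H + N count was also 0 without H + N library 1 or 3 and 1 without L − N library 2. The H − N count was 0 without H − N library 1, 1 without L − N library 2 or H − N library 3, and 2 without H − N library 2. The L + N count was 1 without L − N library 2, any of the L + N libraries, H − N library 2 or H + N library 1. None of the 8 was at 0. The part of macrophages in the lower IDH1, PFKP, HK1, ADH5 and PGAM1 against L − N was not tested.

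The 8 smooth muscle markers summed to 2833, 878 and 982 FPKM in L − N, 580.5, 628 and 514 in L + N, 417, 773 and 804 in H − N, and 743, 735 and 742 in H + N. L − N library 1 stood apart, at more than any other library, and ACTA2 was the most abundant with 390.4 FPKM. In L + N, 2 of 8 passed as lower, TAGLN and ACTA2, with 0 when any of the L + N libraries was left out and 5 without L − N library 2. ACTA2 also lost its call without L − N library 1 (adjusted p = 0.0585) or 3 (0.0584). For NCG 0 of 8 passed in edgeR, with 5 at an unadjusted p under 0.05 and 1 by DESeq2, and 7 of 8 values were negative, the median being −0.74 on the log2 scale. In H + N and H − N 0 of 8 passed in edgeR, with 3 and 4 at an unadjusted p under 0.05 and 2 and 2 by DESeq2, and none of the 8 was at 0. L − N library 1 is also the library without which the number of members passed rose to 4 in H + N, 5 in H − N and 10 in L + N, and the part of smooth muscle in the members' values was not tested.

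The 6 red cell markers in the table summed to 1482, 117 and 956 FPKM in L − N, 56.5, 109 and 168 in L + N, 66.2, 110.4 and 59.2 in H − N, and 55.5, 601 and 402 in H + N. L − N libraries 1 and 3 and H + N libraries 2 and 3 were high, HBB was the most abundant with 345 FPKM, and SLC4A1 had at most 3 counts in any library. Of 3 tested, AHSP passed as lower in L + N, and not without L − N library 3 or L + N library 1 or 2, while 3 passed without L − N library 2 and 2 without H + N library 1. In H − N 0 of 3 passed in edgeR, although all 3 were lower at an unadjusted p under 0.05 (median −3.48 on the log2 scale) and DESeq2 passed 2. Without L − N library 2 edgeR passed 2 of them, and without H + N library 1 it passed 1. For NCG 0 of 3 passed in edgeR, with 1 at an unadjusted p under 0.05 and 0 by DESeq2, and 1 passed without L − N library 2. For fiber and in H + N against L − N 0 passed, with 0 at an unadjusted p under 0.05 and 0 by DESeq2. For the interaction 0 of 3 passed in edgeR, with 3 positive at an unadjusted p under 0.05 and a median of 5.43. The 8 endothelial markers summed to 393, 263 and 311 FPKM in L − N, 249, 199 and 228 in L + N, 265, 287 and 251 in H − N, and 239, 301 and 235 in H + N. L + N was the lowest group, PECAM1 was the most abundant with 79.3 FPKM, and none was at 0. PECAM1 passed as lower for NCG (log2 fold change −0.74, adjusted p = 0.0118), in H + N and in L + N, and CDH5 in L + N. For NCG 4 of the 8 were lower at an unadjusted p under 0.05, and 6 values were negative (median −0.26). In L + N 5 of the 8 were lower at that level, and 7 values were negative (median −0.49). PECAM1 passed for NCG without any of the 12 libraries. Its H + N call was lost without any of the L − N libraries, L + N library 2 or 3, H − N library 2, or H + N library 1 or 3, and its L + N call without L + N library 2. CDH5 did not pass without L − N library 1 or 3, any of the L + N libraries, H − N library 2 or H + N library 1. The part of red cells and endothelium in the members' values was not tested.

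Stromal markers summed to 7485 to 13190.2 FPKM by library. VIM, an intermediate filament protein of mesenchymal cells, passed as lower for fiber and in all 3 comparisons with L − N, THY1 as lower in H − N, and HOXA10, a regulator of uterine patterning, as higher for NCG and in H + N and L + N. Of the stromal calls, HOXA10 for NCG and in L + N passed without any of the 12 libraries, whereas no stromal gene passed in H + N without L − N library 3 or H + N library 1, or in H − N without H − N library 1. VIM for fiber passed without L − N library 1 or 3 or H + N library 2 and failed without any of the other 9, and in L + N it failed without L + N library 1 or 3. THY1 passed without L − N library 1, H − N library 2 or H + N library 3 and failed without any of the other 9. Epithelial markers summed to 465 to 1039.7 FPKM, and CDH1 passed as higher in H − N, but not without L − N library 2 or 3 or H − N library 1 or 3. In H − N 5 of 10 epithelial markers were higher at an unadjusted p under 0.05. There 8 values were positive and 2 negative, with a median of 0.47, and 2 markers passed in edgeR without L − N library 1. For NCG 0 of 10 epithelial markers passed in edgeR, with 1 at an unadjusted p under 0.05 and 0 by DESeq2, and 9 of 10 values were negative, the median being −0.20 on the log2 scale. In H + N against H − N 0 of 10 passed in edgeR, with 4 at an unadjusted p under 0.05 and 1 by DESeq2, and all 10 values were negative. The part of epithelium in the lower HK1, PFKP, IDH1 and ALDH9A1 was not tested. Ciliated cell markers (21.0 to 129 FPKM), neutrophil markers (2.17 to 193 FPKM), T and NK cell markers (40.7 to 137 FPKM), and B and plasma cell markers (253 to 797 FPKM) had 0 genes passing in any comparison in edgeR. For NCG, 0, 0, 0 and 1 of them had an unadjusted p under 0.05, and DESeq2 passed 0. Of 5 neutrophil markers tested, 3 were lower at that level in H + N against H − N (median −4.81, 1 by DESeq2) and in H + N against L + N (−3.84, 0 by DESeq2), and 3 were negative for the interaction (−6.03, 3 by DESeq2). Neutrophil sums were 7.60, 40.4 and 16.6 FPKM in L − N, and 80.5, 76.5 and 9.10 in L + N. They were 11.6, 3.45 and 193 in H − N, and 2.70, 2.17 and 6.36 in H + N. In H − N the sum was thus high in library 3 only. Against L − N, 1 neutrophil marker was lower unadjusted in H + N (1 by DESeq2, and 1 in edgeR without H − N library 3) and 1 higher in H − N (0 by DESeq2). Of 6 ciliated cell markers, 3 were higher unadjusted for fiber, 3 in H − N and 2 in H + N, with 0 by DESeq2 in each. Of 8 T and NK cell markers, 1 was lower unadjusted for fiber (0 by DESeq2) and 2 in H − N (2 by DESeq2). Without L − N library 1 edgeR passed 2 of the 8 for fiber, 2 in H − N, 1 in H + N and 1 for the interaction. Of 6 B and plasma cell markers, 1 was higher unadjusted for fiber (0 by DESeq2). The part of these cells in the members' values was not tested. Liver markers (48.9 to 143 FPKM, mostly APOA1) and fat cell markers (2.96 to 19.1 FPKM) had 0 passing for NCG in edgeR, with 0 at an unadjusted p under 0.05 and 0 by DESeq2. In L + N 1 fat cell marker was lower unadjusted and passed by DESeq2 and, without H − N library 1, in edgeR. In H − N 1 liver marker was lower unadjusted (0 by DESeq2), and 1 was higher in H + N against H − N (0 by DESeq2). The skeletal muscle gene MYH2, at 0.0929 FPKM, passed as lower in H − N and L + N, and lost both calls without L − N library 2 or 3 or H − N library 1, the H − N call also without H − N library 2 or 3, and the L + N call without any of the L + N libraries.

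Of a list of 10 genes of cell division, 6 passed as higher for NCG, MKI67, TOP2A, CCNB1, CDK1, BUB1 and AURKA, with a median log2 fold change of 0.97. MKI67, which marks dividing cells, had 30.8, 58.2 and 18.4 CPM in L − N, 100.3, 91.2 and 138 in L + N, 60.4, 60.1 and 76.7 in H − N, and 85.03, 99.7 and 126 in H + N. All 6 libraries with NCG were above all 6 without it. The log2 fold change was 1.13 ± 0.24 (SE, adjusted p = 0.0180), and for TOP2A it was 1.83 ± 0.27 (adjusted p = 0.00578). MKI67, TOP2A and BUB1 passed for NCG without any of the 12 libraries, while CCNB1, CDK1 and AURKA each lost the call without 7 or more of them. The value of AURKA is uncertain, since it overlaps a gene on the opposite strand. The count for NCG was 3 without L − N library 3, L + N library 2 or 3, H − N library 1 or 2, or H + N library 1 or 3, and 8 without L − N library 2. Against L − N, 6 passed in H + N, 1 (TOP2A) in H − N and 6 in L + N, counts that were 0, 0 and 1 without L − N library 3. The 6 in L + N were those named for NCG, while in H + N MCM3 (adjusted p = 0.0466) passed as higher and AURKA did not pass. With 1 library left out, MCM3 passed only without L − N library 2 or H − N library 3. The H + N count was also 0 without H + N library 1, 1 (TOP2A) without H + N library 3, and 3 without L − N library 1, L + N library 1 or 2, or H − N library 2. The L + N count was 2 without L + N library 2 or 3. The H − N count was 0 without any of the H − N libraries, L + N library 2 or 3, or H + N library 1, and 5 without L − N library 2. Whether the share of dividing cells bears on the members' values was not tested.

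HIF1A, the transcription factor that raises glycolytic genes in low oxygen, had 79.9 FPKM and a log2 fold change of 0.08 for NCG (adjusted p = 0.778). Of a list of 18 genes, HIF1A and other factors of the response to low oxygen with known targets outside the members, 0 passed for NCG in edgeR, with 6 at an unadjusted p under 0.05 and 3 by DESeq2. The NCG count was 2 without L − N library 1, and 1 without H − N library 2 or H + N library 2 or 3. For fiber 0 passed in edgeR, with 5 lower and 1 higher at an unadjusted p under 0.05. The fiber count was 2 without L − N library 1 and 1 without H + N library 2. Against L − N, 5 passed in H + N, with VEGFA (1.59, adjusted p = 0.0214) higher and CA12 (−2.85, 0.0429), ADM (−1.75, 0.0308), BNIP3L (−0.55, 0.0469) and NDRG1 (−0.70, 0.0469) lower on the log2 scale. In H − N 3 passed, VEGFA higher and CA12 and ADM lower, and in L + N 1 passed, ADM as lower (−1.93, adjusted p = 0.0183). VEGFA drives the growth of vessels and ADM relaxes them. The counts fell to 0 in H + N without L − N library 3 or H + N library 1 or 3, in H − N without L − N library 2 or 3 or H − N library 1 or 2, and in L + N without L − N library 3 or any of the L + N libraries, and ADM in L + N was also lost without L − N library 2. Single calls were less stable than these counts. In H + N, BNIP3L was lost whichever of the 12 libraries was left out, NDRG1 passed only without L − N library 2 or H + N library 2, and CA12 only without L − N library 1 or H − N library 1 or 3. ADM in H + N was lost without L − N library 2 or 3 or any of the H + N libraries, and VEGFA without L − N library 2 or 3 or H + N library 1 or 3. In H − N, VEGFA passed only without L − N library 1 or H + N library 2 or 3, ADM only without L − N library 1, H − N library 3 or H + N library 3, and CA12 was lost without L − N library 2 or 3 or any of the H − N libraries. CA12 overlaps a gene on the opposite strand and its value is uncertain.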

How the data were processed

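Endometrium of 12 sows, 3 per diet, was sequenced by the authors from poly(A) RNA with paired-end, strand-specific libraries, and groups were read from the library titles. Per the submitters' notes the reads were trimmed with fastp 0.22.0, aligned with HISAT2 2.1.0 and counted per gene with HTSeq 0.9.1, and the strand used in counting was not stated. The deposited table holds the read count of each gene in each library, and these counts were tested. The FPKM values deposited in the same table were used to compare levels between genes and for ratios, and they followed from the counts and gene lengths.

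Genes were filtered with filterByExpr, scaled by TMM (factors 0.941 to 1.07) and fitted by the quasi-likelihood model of edgeR 4.0.16 in R 4.3.3 (with limma 3.58.1), with 1 mean per group, 12 libraries, 8 residual degrees of freedom and a common biological coefficient of variation of 0.270. The contrasts were both main effects, their interaction, each group against L − N, H + N against H − N and against L + N, and any difference among the groups. P-values were adjusted by Benjamini and Hochberg over the 15351 genes tested, and a second threshold added an absolute log2 fold change above 1. A gene's libraries were called apart when the 2 sides of a comparison did not overlap in CPM. The scripts were tested on simulated data. By name, 2 of the members are not reported here, and the figures and isozyme shares leave them out.

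Totals of 14369781 to 19309724 counts per library gave most members narrow counting error, while the 10 untested members were too low to compare. The alternatives tried were RLE scaling, DESeq2 1.42.0, no filter, a filter of at least 10 counts in every library, the fold threshold, a replicate block, only the 6 libraries compared, core members only, members that overlap no other gene, and leaving out each library in turn. Genes were named if they passed in a main effect, in H + N or L + N against L − N or in the test of any difference, had the highest level of their role or the highest or lowest level of all, or code for a committed step. Other members were named after their values were seen, as where DESeq2 or a left-out library passed them. The members, and the lists of cell type markers, flux regulators, genes of low oxygen and cell division, were chosen with earlier results of these data known.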

Additional observations from a re-analysis of the deposited data

How the results depend on the processing

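No result that passed changed direction. Values near 0 that did not pass, such as those of GALM, HK2 and HIF1A for NCG and the medians of the members for fiber and in H + N against L + N, changed sign in some alternatives. ALDH9A1 for NCG kept its side of the threshold in 16 of 16 alternatives and HK1 for NCG in 14. The interaction, H + N against L + N and the isozyme ratios stayed at 0 in each alternative. By DESeq2 the number of members that passed was 1 for fiber, 5 in H + N against L − N, 5 in H − N against L − N, 10 in L + N against L − N, 1 in H + N against H − N and 10 for any difference, and 6 for NCG against 4 in edgeR. With the fold threshold it was 0 for NCG and in H + N and L + N against L − N. With no filter it was 1 in H + N and 1 in L + N against L − N, where more genes were tested. IDH1 for NCG also lost its call with no filter (adjusted p = 0.0540 in edgeR). With RLE scaling, and with at least 10 counts in every library, 2 passed in H − N against L − N, DLST and IDH1. With only the 6 libraries compared, 1 passed in H + N against L − N. The cause was not tested.

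With 1 library omitted at a time, which leaves fewer samples and an arm of 2, the number that passed ran from 0 to 1 for fiber, 1 to 6 for NCG, 0 to 4 in H + N, 0 to 5 in H − N and 0 to 10 in L + N against L − N, and 0 to 4 for any difference. In each comparison with L − N the highest count came without L − N library 1, in H + N also without H − N library 3, and the cause was not tested. The alternative without members that overlap another gene was chosen after seeing the data and left the counts as they were.

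With the replicate number as a replicate block, 2 members passed for NCG (ALDH9A1 and HK1), 1 in H + N (IDH1) and 1 in L + N (HK1) against L − N, and 0 for any difference. The numbers were not shown to pair libraries, since over 18 pairs of libraries with the same number the median correlation was −0.0414, against 0.0298 for other pairs. The block changed no other count of members.

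The groups hold 3 libraries each, so small changes could not be told from spread, and many calls lie close to the threshold: PFKP, IDH1, PGAM1 and ADH5 each lost a call under most omissions. Counts near 0 limit the untested members. RNA levels say nothing of enzyme activity, flux or metabolite levels.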
